A study of Homo sapiens with 58 samples.

Results

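The regulatory elements (REs) described here lie at 49 genes of the WNT pathway: 18 WNT ligands, 10 Frizzled receptors, 4 co-receptors (LRP5, LRP6, ROR1 and ROR2), 7 secreted inhibitors (SFRP1, SFRP2, SFRP4, SFRP5, DKK1, DKK2 and DKK3), 5 R-spondins and R-spondin receptors (RSPO1, RSPO2, RSPO3, LGR4 and LGR5), and 5 genes of the nuclear response (LEF1, TCF7, TCF7L1, TCF7L2 and AXIN2). An RE was assigned to a gene if its midpoint fell within the gene body or within 50 kb of an annotated transcript start (GENCODE release 44, hg38), and an RE near several of these genes was counted for the nearest start. This rule uses position only, and it selected 739 of 151457 REs, with at least 1 RE for each of the 49 genes. The number of REs per gene ran from 2 at FZD6 to 49 at ROR1. REs are numbered along the strand of their gene, so that ROR1-42 is RE number 42 of ROR1. Of the 739 REs, 407 lay within the body of their own gene, and for 134 the nearest protein-coding transcript start belonged to a gene outside the list.

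Chromatin accessibility was measured by ATAC-seq in cranial neural crest cells (CNCCs) differentiated from H9, a human embryonic stem cell line, in which both copies of SOX9 had been fused to FKBP12-F36V, mNeonGreen and V5. The FKBP12-F36V tag lets the small molecule dTAGV-1 direct SOX9 to degradation. The tagged cells came from 2 edited lines, S9CC13 and S9CC47, each of which is a single clone. They were held for 48 h at 0, 0.5, 1.6, 5, 16 or 500 nM dTAGV-1, which the labels pair with SOX9 levels of 100, 77.9, 51.7, 25.8, 8.14 and 0.95%, and each of these 6 groups held 7 samples (4 of S9CC13 and 3 of S9CC47, from 6 differentiation batches). Untagged wild-type (WT) cells were held for 48 h at 0 or 500 nM, with 2 samples each. A separate time course compared vehicle for 24 h with 500 nM for 3 h (after 21 h of vehicle) or 24 h, in tagged and in WT cells, with 2 samples for each group. All cells, the controls included, grew in medium with BMP2 and CHIR-99021. CHIR-99021 inhibits the kinase GSK3 and thereby activates canonical WNT signaling, so every group below is a comparison made with that branch of the pathway already stimulated. Replicate S9CC13_R14 carries dTAGV-1 concentrations that contradict its titles and SOX9 levels for the lowest pair of doses (0 and 0.5 nM); the titles were followed here, and counts without that replicate are given below. The deposited column names place 3 time-course libraries in S9CC47 where the titles say S9CC13, so the clone was not used in the time course, and WT time-course samples carry labelled SOX9 levels of the tagged series although SOX9 is untagged in them.

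WNT proteins are secreted ligands that bind Frizzled receptors together with LRP5 or LRP6, which stabilizes beta-catenin and brings it to TCF and LEF proteins on DNA, or together with ROR1 or ROR2, which signals without beta-catenin to cell polarity and migration. SFRP proteins can block this at the ligand and DKK1 at LRP5 and LRP6, and R-spondins acting through LGR receptors keep Frizzled and LRP proteins on the cell surface. WNT signals induce the neural crest and later pattern the face, and AXIN2 and LEF1 are widely used as markers of the canonical response.

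Libraries held 22905782 to 81040023 reads in REs, with a median of 51 to 199 reads per RE, and values below are read counts scaled to library size (CPM, with TMM factors). The 7 samples of a dose group are separate differentiations or clones, and every pair of samples within a group differed by more than sampling noise (chi-square per degree of freedom of at least 2.6). Checked against marker genes, promoter REs of the cranial neural crest markers TWIST1, TFAP2A, TFAP2B, NR2F1, NR2F2, SNAI2, PRRX1, ALX4, MSX1 and SOX9 ranked at percentiles 92.1 to 99.7 of all REs by CPM per kb without dTAGV-1. Of the markers of other cell types, LIN28A, LHX2 and MITF also ranked high (percentiles 93.4, 90.5 and 96.1), as did PAX6 (85.1), whereas NANOG and ZFP42 had no promoter RE and POU5F1 and SOX10 lay at percentiles 28.1 and 38.4. The part of such cells in the results below was not tested. In bulk ATAC-seq, lower accessibility in each cell and fewer cells with the RE open cannot be told apart.

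Stretches of 8 REs from among the largest losses of each role at 500 nM are shown here as the hg38 plus strand, since the results turn on them and since they differ in the SOX sequences they hold. Each line gives 121 bases from within the RE, centred on a pair of facing ACAAT cores where there was such a pair, otherwise on the ACAAT nearest the middle of the RE (shifted where the RE ended), otherwise on the middle. Capitals mark every ACAAT and ACAAAG on either strand. ACAAT is the core of many SOX binding sites, and ACAAAG is a form of the site that SOX and TCF proteins share.

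ROR1-42, chr1:64077272-64077392: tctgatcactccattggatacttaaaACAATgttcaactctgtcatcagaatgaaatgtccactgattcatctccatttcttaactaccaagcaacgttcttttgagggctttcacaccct
LRP6-6, chr12:12240859-12240979: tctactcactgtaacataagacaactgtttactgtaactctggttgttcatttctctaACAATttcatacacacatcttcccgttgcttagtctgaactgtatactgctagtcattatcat
AXIN2-18, chr17:65499007-65499127: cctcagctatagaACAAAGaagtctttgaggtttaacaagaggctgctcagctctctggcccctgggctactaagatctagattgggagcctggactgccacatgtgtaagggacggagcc
FZD9-4, chr7:73410628-73410748: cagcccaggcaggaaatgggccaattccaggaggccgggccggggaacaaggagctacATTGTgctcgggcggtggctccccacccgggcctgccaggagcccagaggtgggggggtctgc
DKK3-4, chr11:12019565-12019685: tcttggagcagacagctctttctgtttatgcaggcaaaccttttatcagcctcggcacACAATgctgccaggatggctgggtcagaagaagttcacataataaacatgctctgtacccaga
LEF1-25, chr4:108058849-108058969: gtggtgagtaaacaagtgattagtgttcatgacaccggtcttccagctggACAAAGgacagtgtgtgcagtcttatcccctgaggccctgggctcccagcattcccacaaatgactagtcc
WNT2-2, chr7:117350092-117350212: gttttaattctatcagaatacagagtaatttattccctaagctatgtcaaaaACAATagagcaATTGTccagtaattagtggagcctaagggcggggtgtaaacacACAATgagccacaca
LGR5-8, chr12:71560844-71560964: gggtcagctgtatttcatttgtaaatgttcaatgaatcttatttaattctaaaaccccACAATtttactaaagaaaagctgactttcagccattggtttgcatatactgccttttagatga

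Of the 8 stretches, 6 held an ACAAT. WNT2-2 was the only one of them with facing cores, here 6 bases apart. SOX9 can bind such facing cores as a dimer. The stretches of AXIN2-18 and LEF1-25 held ACAAAG and no ACAAT.

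After depletion of SOX9 for 48 h, more REs of these genes lost accessibility than gained it, and the losses were larger. At 500 nM, 139 of 739 REs (18.8%) were lower than at 0 nM and 50 (6.77%) were higher at an adjusted p under 0.05 (edgeR quasi-likelihood test, Benjamini-Hochberg over all 151457 REs), against a background of 13.9% lower and 10.2% higher among all REs. Losses made up 73.5% of the changed REs at WNT genes and 57.8% of the changed REs overall. The median log2 fold change was -0.02 over the 739 REs and 0.02 over all REs. Losses of at least 1 on the log2 scale were found at 26 REs (3.52%, compared with 3.88% of all REs). No RE here gained as much, while 921 of all 151457 REs did. Of the 139 lower REs, 111 were lower in all 7 replicates, and at 29 of them the 0 nM and 500 nM samples did not overlap. Of the 50 higher REs, 39 were higher in all 7 replicates, and 3 showed no overlap between the groups. These REs were called with the same samples, so part of this agreement is built in, and no share over all REs is given beside these counts. REs of one gene are neighbours on a chromosome and are not independent of each other.

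**Figure D1:**
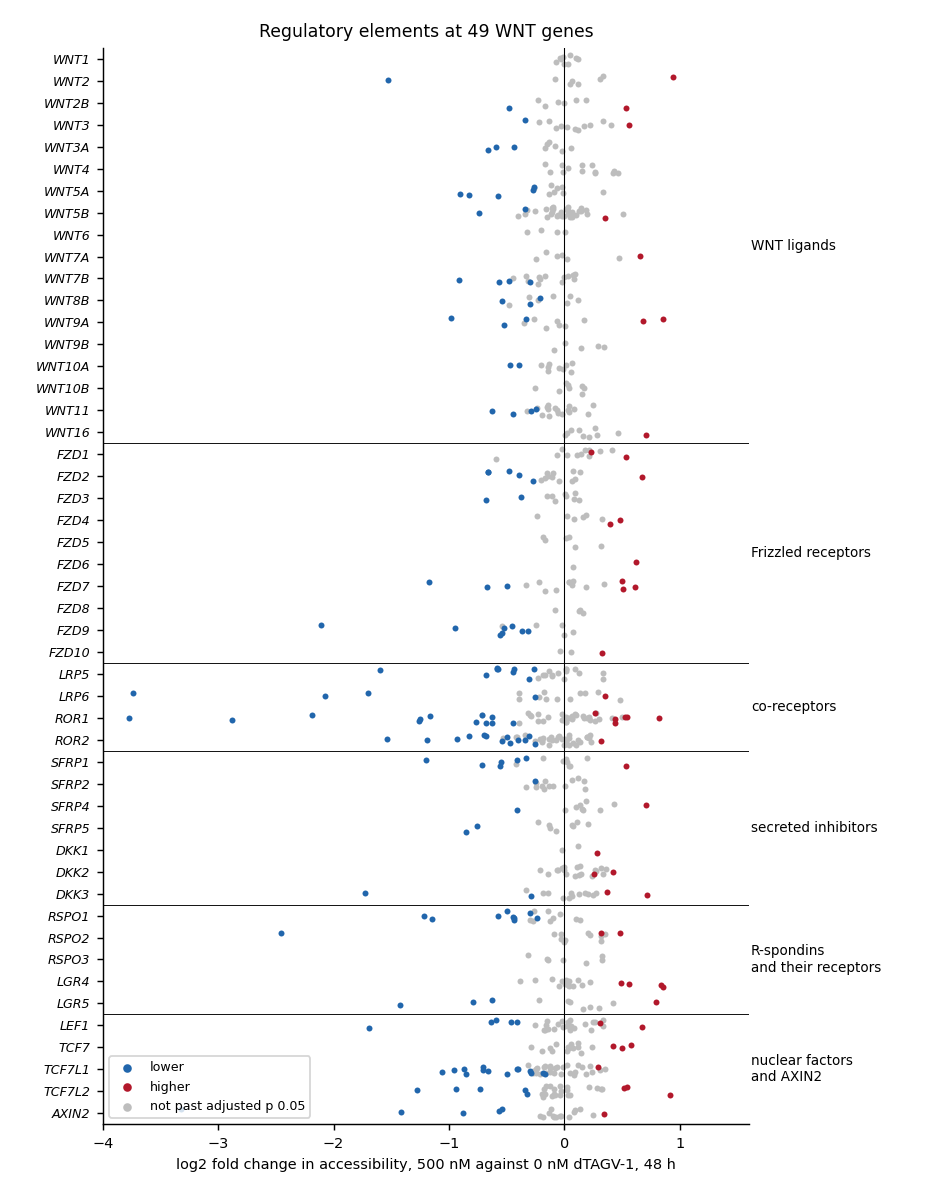
Log2 fold change in accessibility at 500 nM against 0 nM dTAGV-1 after 48 h (x axis) for each of the 739 REs, in a row for each gene and grouped by role; blue points were lower, red points higher and gray points not past an adjusted p of 0.05. The losses reach -3.78 at ROR1 and -3.74 at LRP6, whereas the largest gain is 0.95 at WNT2.

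By gene, 12 of the 49 had lower REs and no higher RE, 10 had higher REs and no lower RE, 19 had both and 8 had neither (WNT1, WNT4, WNT6, WNT9B, WNT10B, FZD5, FZD8 and RSPO3). A gene with more REs is more likely to hold a called one, so this split follows in part from the number of REs per gene. The co-receptors had the highest share of lower REs (27.7% of 137), followed by the nuclear factors with AXIN2 (20.7% of 140), the Frizzled receptors (19.6% of 92), the R-spondins and their receptors (19.4% of 67), the ligands (13.6% of 214) and the secreted inhibitors (13.5% of 89). The last 2 of these shares lie near the 13.9% of all REs. The roles also differ in how many REs reached to within 1000 bp of a start of their own gene. In the same order these were 11 of 137, 19 of 140, 17 of 92, 15 of 67, 42 of 214 and 20 of 89. Promoter REs were lower less often over all REs (8.76%), and the part of position in this ranking was not tested.

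Among the ligands, 29 of 214 REs were lower and 8 were higher. WNT5A, a ligand of the ROR receptors that is needed for outgrowth of the face, had 5 lower REs of 13 and none higher. WNT7B had 4 lower of 17, WNT11 had 4 of 21, and WNT3A, WNT8B and WNT9A had 3 each. WNT1, a classic marker of the dorsal neural tube from which the neural crest arises, had 9 REs, none past the threshold. The largest loss was at WNT2-2 (chr7:117349950-117350450), 27.05 kb upstream of WNT2 and at the promoter of a gene named only by its Ensembl identifier. It ranged from 0.92 to 2.50 CPM (median 1.61) without dTAGV-1 and from 0.42 to 0.77 CPM (median 0.59) at 500 nM. The groups did not overlap (log2 fold change -1.53, SE 0.20, adjusted p = 2.48e-06). Next came WNT9A-2 (chr1:227961620-227962120), 13.94 kb upstream of WNT9A, which fell without overlap from a median of 2.09 CPM (1.618 to 2.549) to 1.07 CPM (0.67 to 1.38) (log2 fold change -0.98, SE 0.16, adjusted p = 5.06e-05). WNT2 also held the largest gain of any RE here. Intronic WNT2-5 (chr7:117312962-117313462) rose in 6 of 7 replicates, from a median of 0.93 CPM (0.67 to 1.47) to 2.25 CPM (0.99 to 2.54), with overlapping ranges (log2 fold change 0.95, SE 0.19, adjusted p = 0.000495). At WNT9A, too, a gain lay within the gene, at intronic WNT9A-9 (log2 fold change 0.86, SE 0.23), with an adjusted p of 0.00649 over all replicates, 0.0598 without S9CC13_R10 and 0.0639 by DESeq2.

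The Frizzled receptors had 18 lower and 10 higher REs of 92, and the counts differed from gene to gene. FZD9 had 8 lower REs of 13 and none higher, FZD2 had 5 lower and 1 higher of 17, and FZD7 had 3 of each among 16. FZD1 and FZD4 had 2 higher REs each and none lower. FZD9-4 (chr7:73410149-73411246), an intergenic RE 23.08 kb upstream of FZD9, fell furthest. Its samples lay between 4.30 and 10.3 CPM (median 9.55) at 0 nM and between 1.61 and 2.36 CPM (median 1.81) at 500 nM. No sample overlapped between the groups, and 22.7% of the mean accessibility was left (log2 fold change -2.11, SE 0.13, adjusted p = 3.78e-12). FZD7-2 (chr2:201996028-201996528), an intergenic RE upstream of FZD7, fell in 7 of 7 replicates, from a median of 1.30 CPM (0.79 to 1.64) to 0.48 CPM (0.28 to 0.89), with slightly overlapping ranges (log2 fold change -1.17, SE 0.21, adjusted p = 0.000159). The largest gain, at FZD2-13 (chr17:44587293-44587793), 30.06 kb downstream of the FZD2 start, was also seen in 7 of 7 replicates (log2 fold change 0.67, SE 0.18, adjusted p = 0.00597), but the ranges of 1.28 to 5.21 CPM at 0 nM and 2.00 to 11.0 CPM at 500 nM overlapped widely, and DESeq2 gave an adjusted p of 0.0503.

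The co-receptors held the largest losses of all 739 REs. At ROR1, a receptor-like kinase that binds WNT5A, 12 of 49 REs were lower and 6 were higher. At ROR2, its paralog, 13 of 48 were lower and 1 was higher, at LRP5 9 of 24 were lower and none higher, and at LRP6 4 of 16 were lower and 1 was higher. ROR1-42 (chr1:64077272-64077772) lies in an intron of ROR1, 302.23 kb from the nearest ROR1 start, and the nearest protein-coding start, that of UBE2U, is 126.1 kb away. It had 9.77 to 22.0 CPM (median 16.7) without dTAGV-1 and 0.9146 to 1.503 CPM (median 1.02) at 500 nM. Every sample at 0 nM lay above every sample at 500 nM, and 7.32% of the mean accessibility was left (log2 fold change -3.78, SE 0.13, adjusted p = 1.03e-16). LRP6-6 (chr12:12240595-12241376), in an LRP6 intron 3.32 kb downstream of an internal start and 26.06 kb from the start of the gene, went from 11.4 to 22.0 CPM (median 17.3) to 0.68 to 2.14 CPM (median 1.27). Here too the groups did not overlap, and 7.82% was left (log2 fold change -3.74, SE 0.16, adjusted p = 7.72e-15). ROR1-8 (chr1:63771895-63772607), 1.77 kb upstream of the ROR1 start, was picked for its size after its values were seen: it fell from a median of 44.04 CPM (23.1 to 54.6) to 4.96 CPM (3.39 to 6.97) (log2 fold change -2.88, SE 0.12, adjusted p = 2.65e-15). The largest gain at the co-receptors was at intronic ROR1-25, at low accessibility, from a median of 0.78 CPM (0.29 to 1.83) to 1.23 CPM (0.91 to 3.49), with overlapping ranges (log2 fold change 0.82, SE 0.20, adjusted p = 0.00278).

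At the secreted inhibitors, 12 of 89 REs were lower and 7 were higher. SFRP1 accounted for 6 of the 12 losses, among its 15 REs. SFRP2 had 1 lower RE of 14, and DKK1, a strong inhibitor of LRP5 and LRP6, had 3 REs with 1 of them higher. DKK3-4 (chr11:12019263-12019763), 9.74 kb upstream of DKK3, fell in 7 of 7 replicates at low accessibility, from a median of 0.79 CPM (0.3153 to 1.1) to 0.22 CPM (0.15 to 0.40), with overlapping ranges (log2 fold change -1.72, SE 0.29, adjusted p = 5.73e-05). SFRP1-6, 9.85 kb upstream of SFRP1, fell without overlap from a median of 1.11 CPM (0.79 to 1.38) to 0.36 CPM (0.27 to 0.72) (log2 fold change -1.20, SE 0.22, adjusted p = 0.000191). The largest gain, at DKK3-14, went without overlap from a median of 0.77 CPM (0.49 to 0.87) to 1.08 CPM (0.8695 to 1.6) (log2 fold change 0.72, SE 0.18, adjusted p = 0.00497); this RE lies 21.67 kb from a DKK3 start but at the promoter of USP47.

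R-spondins and their receptors differed within the group. RSPO1 had 9 lower REs of 18 and none higher, and RSPO2 had 1 lower and 2 higher of 13. LGR5 had 3 lower and 1 higher of 11, whereas its relative LGR4 had 4 higher REs of 18 and none lower. RSPO2-7, in an intron of RSPO2, fell in 7 of 7 replicates from a median of 0.96 CPM (0.51 to 1.94) to 0.22 CPM (0.03 to 0.76), with overlapping ranges (log2 fold change -2.46, SE 0.32, adjusted p = 1.8e-06). LGR5-8 (chr12:71560511-71561403), in an LGR5 intron 6.30 kb upstream of an internal start, fell without overlap from a median of 5.72 CPM (3.93 to 8.59) to 2.06 CPM (1.67 to 2.93) (log2 fold change -1.42, SE 0.14, adjusted p = 1.42e-08). LGR4-14 (chr11:27423099-27423599), in an LGR4 intron, rose in 7 of 7 replicates from a median of 1.66 CPM (1.23 to 2.07) to 2.78 CPM (2.25 to 4.73), again without overlap (log2 fold change 0.86, SE 0.14, adjusted p = 4.88e-05).

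Among the genes of the nuclear response, 29 of 140 REs were lower and 10 were higher. TCF7L1, which mostly represses WNT targets in the absence of signal, had 14 lower REs of 44 and 1 higher. LEF1 had 5 lower and 2 higher of 30, TCF7L2 had 5 and 3 of 29, AXIN2 had 5 and 1 of 20, and TCF7 had 3 higher REs of 17 and none lower. AXIN2-18 (chr17:65498817-65499317), an intergenic RE 37.61 kb downstream of the nearest AXIN2 start, went from 9.01 to 15.2 CPM (median 11.6) to 0.89 to 2.16 CPM (median 1.05). The groups did not overlap, and 10.4% was left (log2 fold change -3.32, SE 0.15, adjusted p = 1.04e-14). LEF1-25 (chr4:108058659-108059159), in an intron, also fell without overlap, from a median of 5.41 CPM (3.21 to 8.09) to 1.802 CPM (1.08 to 2.43) (log2 fold change -1.69, SE 0.14, adjusted p = 7.03e-10). The largest gain was at intronic TCF7L2-19, which rose in 7 of 7 replicates from a median of 1.76 CPM (1.00 to 3.52) to 3.69 CPM (1.45 to 8.47) although the ranges overlapped (log2 fold change 0.92, SE 0.14, adjusted p = 1.96e-05).

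Promoter REs were also considered apart from the other REs of the same genes. An RE reached to within 1000 bp of a transcript start of its own gene in 124 cases at 48 genes, and 10 of these were lower and 7 higher (13.7% changed), with log2 fold changes between -0.73 and 0.56 and a median of 0.01. Of the other 615 REs, 129 were lower and 43 higher (28.0% changed). Promoter REs also changed less often over all REs, where 8.76% of them were lower and 6.42% higher. There the shares were 15.2% and 8.25% for exonic, 16.3% and 11.8% for intronic, and 14.8% and 11.6% for intergenic REs. The largest promoter loss was at TCF7L2-24 (chr10:113132663-113133163), which covers an internal TCF7L2 start 182.67 kb into the gene and fell from a median of 6.87 CPM (4.42 to 8.32) to 3.98 CPM (2.97 to 4.80), with overlapping ranges (log2 fold change -0.73, SE 0.10, adjusted p = 8.43e-06). FZD2-8 (chr17:44556070-44556940), upstream of the FZD2 start, was far more accessible and fell without overlap from a median of 26.2 CPM (23.4 to 31.9) to 17.3 CPM (16.4 to 18.2) (log2 fold change -0.66, SE 0.07, adjusted p = 5.05e-08). LGR5-9 (-0.62, adjusted p = 0.0139) and LRP5-20 (-0.58, adjusted p = 0.0147), at internal starts 127.10 and 90.18 kb into their genes, did not pass without S9CC47_R8 (adjusted p = 0.0577 and 0.0513), nor did LRP5-20 without S9CC13_R13 (adjusted p = 0.0718). The largest promoter gains were at LGR4-15 (log2 fold change 0.56, SE 0.17, adjusted p = 0.0173), at an internal start 86.10 kb into the gene, and at DKK3-7 (log2 fold change 0.37, SE 0.12, adjusted p = 0.0297), whose adjusted p was between 0.0609 and 0.105 when S9CC13_R10, S9CC13_R14, S9CC47_R5 or S9CC47_R8 was left out. By annotation, REs at promoters of any gene were lower in 7.65% of 183 cases, compared with 8.76% of all promoter REs, whereas intronic REs were lower in 22.3% of 327 (16.3% of all) and intergenic REs in 26.7% of 180 (14.8% of all). Intergenic REs at WNT genes were higher in 5.0% of cases, compared with 11.6% of all intergenic REs. These shares are descriptions and were not tested against each other.

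**Figure D2:**
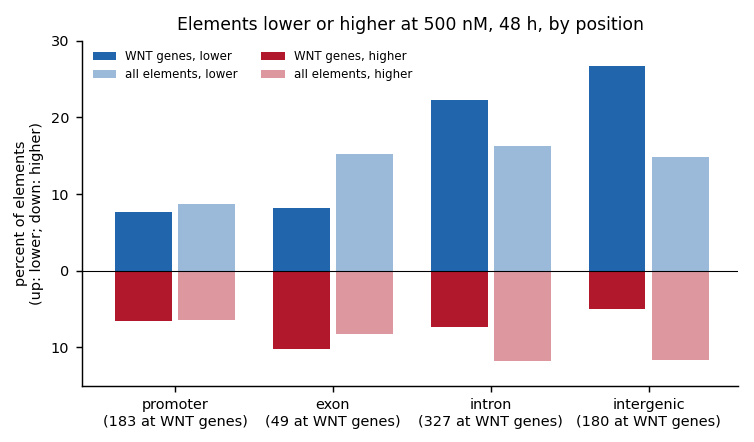
Percent of REs lower (bars upward, blue) or higher (bars downward, red) at 500 nM after 48 h by position in the annotation, for the REs at WNT genes (dark) and all REs (light). The bars for lower REs at WNT genes stand above those for all REs at intronic and intergenic positions (22.3% and 26.7%) and below them at promoters (7.65%) and exons.

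Median GC content was 51.5% for both the lower and the uncalled REs here, while the higher REs had 46.8% and all REs 48.1%. Lower REs were more accessible to begin with, at a median of 10.5 CPM per kb of RE without dTAGV-1 compared with 6.12 for uncalled and 4.2 for higher REs, and more accessible REs give the test more reads. For the pathway beyond these genes, a list of 62 further WNT genes (among them TLE3, PRICKLE2, CTNNBIP1, RNF43, ZNRF3, NKD1 and the destruction complex genes) held 980 REs by the same rule. There 157 (16%) were lower and 72 (7.35%) higher at 500 nM, at 47 and 41 genes respectively and with neither at 4, with the largest losses at TLE3 (log2 fold change -3.77), PRICKLE2 (-3.76) and SOSTDC1 (-3.65).

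The dose series asked how far SOX9 must fall before these REs respond. At 0.5 nM none of the 739 REs passed the threshold (26 had an unadjusted p under 0.05; DESeq2 also called 0), as for 0% of all REs, and at 1.6 nM again none did (31 had an unadjusted p under 0.05), against 0.0383% of all REs. At 5 nM, 34 REs (4.6%) were lower and 2 were higher, compared with 4.24% and 1.08% of all REs. At 16 nM, 89 (12%) were lower and 25 (3.38%) higher, against 9.12% and 7.12%. These comparisons share the 0 nM samples with each other and with the comparison at 500 nM. Blocking on the replicate in place of the batch gave 9 REs at 1.6 nM, all lower, 67 at 5 nM and 197 at 16 nM. Over all 151457 REs it gave 1558, 12921 and 39497. The 9 included ROR1-42, LRP6-6, AXIN2-18, LEF1-25, LGR5-8 and FZD7-2. DESeq2 called 2 REs at 1.6 nM, LRP6-6 and ROR1-42, and 358 of all REs. Without replicate S9CC13_R14, 32 REs were called at 5 nM, 107 at 16 nM and 165 at 500 nM. Over all REs these counts were 7013, 23549 and 32145.

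The REs with large losses moved mostly at the intermediate doses. The median of ROR1-42 was 16.7, 15.9, 13.5, 8.32, 2.70 and 1.02 CPM from 0 to 500 nM. LRP6-6 had medians of 17.3, 14.3, 10.7, 4.26, 1.90 and 1.27 CPM, and AXIN2-18 of 11.6, 10.8, 9.54, 5.59, 2.43 and 1.05 CPM. All 3 fell at each step of the series, and ROR1-42 and AXIN2-18 kept more at 5 nM than LRP6-6 did. The gain at WNT2-5 came late, with log2 fold changes of 0.07 (SE 0.15) at 5 nM and 0.47 (SE 0.18, adjusted p = 0.0883) at 16 nM before 0.95 at 500 nM.

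**Figure D3:**
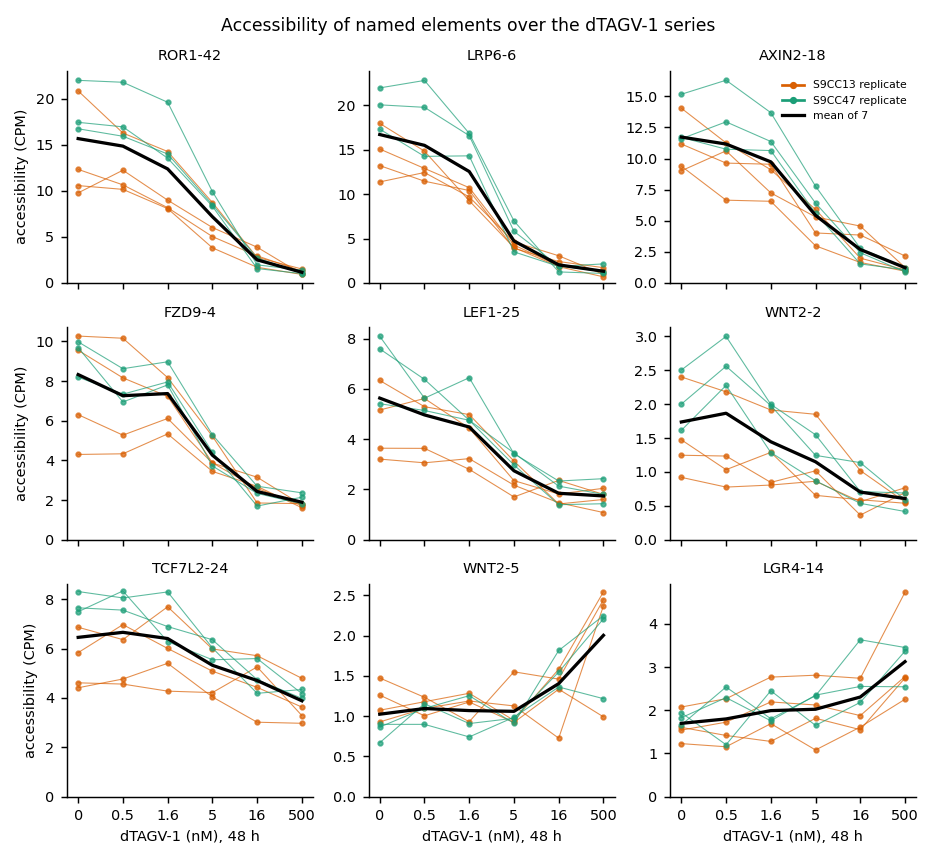
Accessibility (CPM, from 0) of 9 named REs over the 6 dTAGV-1 doses after 48 h, a line for each of 7 replicates (orange S9CC13, green S9CC47) and the mean in black. The 6 REs in the upper rows fall mainly between 1.6 and 16 nM, TCF7L2-24 falls by less, and WNT2-5 and LGR4-14 rise, with the median of WNT2-5 at 0.97 CPM at 5 nM.

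Over the 139 lower REs, the summed log2 change had reached 3.11% ± 7.73 of its 500 nM value (mean ± SD, n = 7 replicates) with 0.5 nM and 14.4% ± 6.9 with 1.6 nM. With 5 nM it had reached 42.4% ± 10.5, and 16 nM took it to 67.9% ± 13.9. A log2 change in proportion to the SOX9 levels of the labels would have reached 22.3, 48.8, 74.9 and 92.7%. That is above the highest of the 7 replicates at every dose (12.1, 23.2, 55.4 and 80.4%). A loss of CPM in proportion to SOX9 would itself fall below this line on the log2 scale. Shares of the summed CPM change were 0.992, 12.3, 43.4 and 66.6%, with highest replicates of 12.1, 26.8, 68.7 and 81.2%, also below the line. The REs were called with the same 0 and 500 nM samples, so no test was made. The 21114 lower REs of the whole series gave 44.1% ± 9.47 at 5 nM. The 50 higher REs gave 33.3% ± 14.3 at 5 nM and 63.0% ± 15.2 at 16 nM, which differed from the lower REs by less than the spread between replicates. REs that were also lower at 3 h in the time course reached 47.9% ± 7.06 at 5 nM and 75.9% ± 12.8 at 16 nM, and those that were not reached 34.8% ± 17.1 and 56.7% ± 16.2. The former share was the higher in 6 of 7 replicates at 5 nM and in 7 of 7 at 16 nM, but in 3 of 7 at 1.6 nM.

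**Figure D4:**
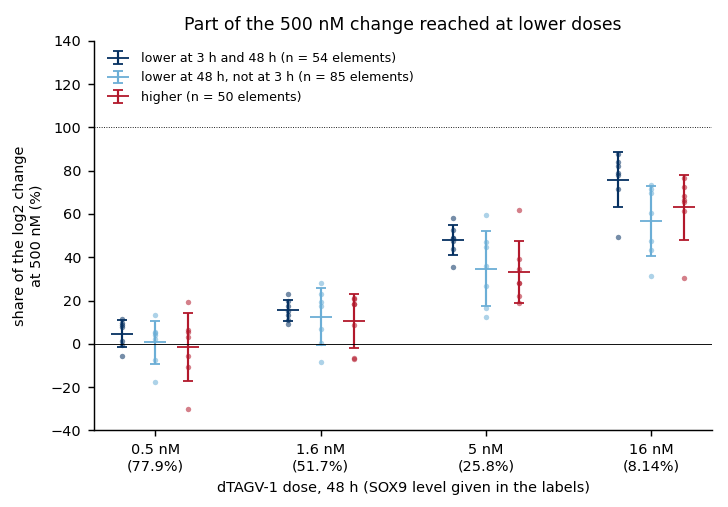
Share of the summed log2 change at 500 nM that was reached at each lower dose (y axis, percent), for REs lower at 3 h and at 48 h, REs lower at 48 h but not at 3 h, and REs higher at 48 h; points are the 7 replicates and bars the mean ± SD. At 16 nM the means are 75.9, 56.7 and 63.0%, and the points of the 3 sets overlap at every dose.

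An ED50, the SOX9 level at which a fitted Hill curve lies midway between the values at 0 and 500 nM, was estimated for each changed RE. Its median was 19.0% of the untreated SOX9 level for the 139 lower REs (15.8 to 21.2% when each replicate was left out) and 11.9% for the 50 higher REs, compared with 21.2% and 17.1% for all lower and all higher REs. The 54 REs lower at both 3 h and 48 h had a median ED50 of 29.2% and the other 85 a median of 11.2%; over all REs these medians were 30.0% and 13.5%. Among the REs with the largest losses, LRP6-6 and LEF1-25 had an ED50 of 38.2% (36.2 to 38.2% and 36.2 to 39.2% when each replicate was left out), above ROR1-42 and AXIN2-18 at 29.2% (28.5 to 30.0% and 27.7 to 30.0%). LRP5-6, in an LRP5 intron (log2 fold change -1.60, SE 0.08, adjusted p = 4.08e-14) and chosen after its value was seen, had 11.2% (10.6 to 11.8%). Of REs with a change of at least 0.5 on the log2 scale, the highest ED50 values were those of TCF7L2-7 (61.8%, 49.9 to 67.0%) and FZD9-2 (60.2%, 52.7 to 74.6%), both losses. The lowest were those of WNT9A-9 (3.93%, 1.76 to 5.41%) and FZD7-11 (4.03%, 3.82 to 4.61%), both gains. Intronic TCF7L2-7 (chr10:112991750-112992250) fell from a median of 1.88 CPM (0.89 to 2.55) to 0.95 CPM (0.50 to 1.23) (log2 fold change -0.94, SE 0.18, adjusted p = 0.000306). FZD7-11 rose without overlap from a median of 1.33 CPM (0.77 to 1.47) to 1.89 CPM (1.54 to 2.65) (log2 fold change 0.61, SE 0.16, adjusted p = 0.00657). FZD9-2 fell in 7 of 7 replicates (log2 fold change -0.52, SE 0.18, adjusted p = 0.036), but did not pass without S9CC13_R10, S9CC13_R13 or S9CC47_R8 (adjusted p = 0.1, 0.0936 and 0.152) or by DESeq2 (0.0579).

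The time course asked which REs respond within hours. After 3 h at 500 nM, 65 REs (8.8%) were lower and 4 were higher in tagged cells, compared with 7.43% and 0.912% of all REs. After 24 h, 85 (11.5%) were lower and 26 (3.52%) higher, compared with 9.93% and 4.7%. Of the 139 REs lower at 48 h, which were measured in other libraries, 54 (38.8%) were already lower at 3 h and 78 (56.1%) at 24 h; for all REs the shares were 43.3% and 60.1%. None of the 50 higher REs was higher at 3 h, and 10 (20.0%) were at 24 h, where the shares for all higher REs were 1.61% and 26.2%. By role, the early losses were 20 of 140 REs at the nuclear genes, 17 of 137 at the co-receptors, 8 of 89 at the inhibitors, 7 of 92 at the Frizzled receptors, 5 of 67 at the R-spondins and their receptors and 8 of 214 at the ligands. The share at the ligands lay below the 7.43% of all REs, and those at the Frizzled receptors and the R-spondins lay near it. With 2 samples for each group, these counts moved with single libraries. Without the vehicle sample of replicate S9CC13_R4, fewer REs were called at 3 h and at 24 h. Without its 24 h sample, which adds to the estimate of spread, more were called at 3 h. In each case the count over all REs moved the same way.

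Some REs with large losses had lost most of their accessibility by 3 h. ROR1-42 had 19.6 and 12.5 CPM with vehicle, 1.621 and 2.131 CPM after 3 h, and 1.24 and 1.25 CPM after 24 h (at 3 h: log2 fold change -3.11, SE 0.20, adjusted p = 2.99e-09). LRP6-6 had 29.1 and 18.0 CPM with vehicle, 3.69 and 2.79 CPM after 3 h and 1.77 and 1.48 CPM after 24 h (at 3 h: log2 fold change -2.90, SE 0.14, adjusted p = 1.03e-10). In both, every vehicle sample lay above every treated sample. WNT2-2, the RE with facing SOX cores, had 3.56 and 2.35 CPM with vehicle and 0.56 and 0.55 CPM after 3 h (at 3 h: log2 fold change -2.45, SE 0.27, adjusted p = 3.29e-06). AXIN2-18 went from 17.3 and 7.45 CPM to 3.75 and 1.95 CPM after 3 h and 1.30 and 0.87 CPM after 24 h, with log2 fold changes of -2.14 (SE 0.16) and -3.52 (SE 0.18). The gains at WNT2-5 (-0.05, SE 0.25) and LGR4-14 (-0.06, SE 0.23) were not seen at 3 h.

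**Figure D5:**
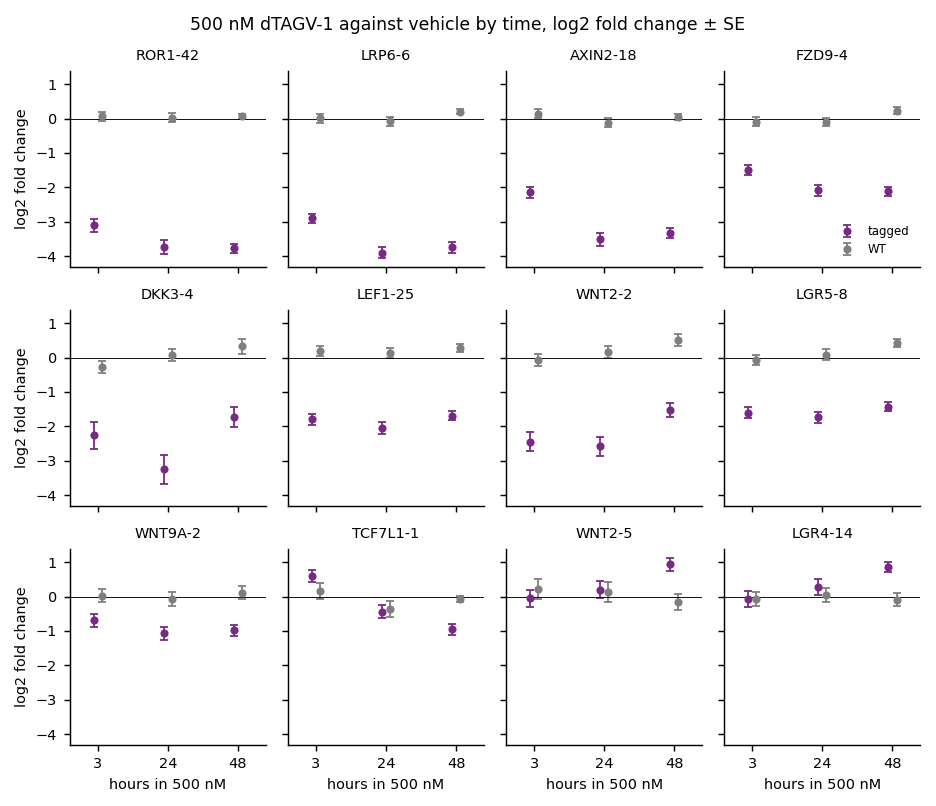
Log2 fold change ± SE (y axis) for 500 nM dTAGV-1 against vehicle after 3, 24 and 48 h (x axis) for 12 named REs in tagged cells (purple) and WT cells (gray); 3 and 24 h come from the time course and 48 h from other libraries. In tagged cells the first 8 REs lie at -1.42 or lower at every time, WNT2-5 and LGR4-14 are highest at 48 h, and WT values lie between -0.35 and 0.50.

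Of the 65 REs lower at 3 h, 11 were not called at 48 h, a share near that of all REs (2009 of 11252). Among the 11 were DKK2-9 (log2 fold change -1.02 at 3 h and -0.02 at 48 h), WNT4-9 (-0.98 and -0.17) and LGR4-12 (-1.30 and 0.22), picked after their values were seen. TCF7L1-1 (chr2:85089541-85090041), 43.60 kb upstream of TCF7L1, had the largest rise of the 4 REs higher at 3 h (log2 fold change 0.60, SE 0.18, adjusted p = 0.0418) and was lower at 48 h (log2 fold change -0.96, SE 0.15, adjusted p = 3.12e-05). Its samples had 13.4 and 3.01 CPM with vehicle and 25.6 and 3.56 CPM after 3 h, in each case S9CC13_R4 and then S9CC13_R5. Without the 3 h sample of S9CC13_R4 the log2 fold change at 3 h was 0.06 (adjusted p = 0.971), without the vehicle sample of S9CC13_R4 the adjusted p was 0.34, and DESeq2 gave 0.765.

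Untagged cells served as the control for dTAGV-1 itself. In WT cells no RE passed the threshold at 3 h or 24 h (16 and 22 had an unadjusted p under 0.05; background 0% of all REs at both times; DESeq2 also called 0 at both), and 4 did at 48 h (background 0.303%; DESeq2 called 0 of the 739). Without the 3 h sample of WT_R4, 18 REs passed at 3 h in WT cells, and without the 24 h sample of WT_R5, 2 passed at 24 h, all of them lower. The 4 at 48 h were WNT11-15, WNT11-16 and WNT11-20, which were lower (-0.52, -0.37 and -0.44), and TCF7L1-5, which was higher (0.33). Of these WNT11-16 was also lower in tagged cells (log2 fold change -0.24, SE 0.07, adjusted p = 0.013), and the test of the difference between the genotypes gave an adjusted p of 0.478. Over the 139 lower REs the median WT change at 48 h was -0.01, and over the 50 higher REs -0.04, where the tagged cells had -0.57 and 0.52. ROR1-42 had 13.8 and 22.6 CPM in WT cells without dTAGV-1 and 15.1 and 22.9 CPM with it, in each case WT_R8 and then WT_RSh.

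Tested directly as the difference between tagged and WT responses, 60 REs (8.12%) were lower and 21 (2.84%) higher in tagged cells at 48 h, compared with 7.29% and 3.56% of all REs. This test uses the same tagged samples as the 500 nM comparison, so their calls overlap in part by construction. All 60 were among the 139 lower REs, and 19 of the 21 were among the 50 higher REs. For the other 2, WNT5A-4 and ROR2-12, the tagged log2 fold changes were 0.34 and 0.13 and the WT ones -0.70 and -0.36, none of them past the threshold. At 3 h, 41 REs (5.55%) differed and all were lower (background 5.13% lower and 0.072% higher), and 40 of them were among the 65 lower REs, from the same tagged samples. At 24 h, 49 (6.63%) were lower and 2 higher (background 6.28% and 0.45%). For ROR1-42 the difference was -3.18 (SE 0.24) at 3 h and -3.84 (SE 0.17) at 48 h. For the promoter RE FZD2-8 it was -0.58 (SE 0.12, adjusted p = 0.000905) at 48 h. Without WT_R8 or without WT_RSh, fewer REs passed at 48 h. Without the tagged vehicle sample of S9CC13_R4, fewer passed at 3 h and at 24 h. Without the WT 3 h sample of WT_R4, more passed at 3 h. In each case the count over all REs moved the same way.

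Sequence was searched for the SOX core ACAAT and the TCF and LEF site CTTTGAT, each on both strands and with overlaps counted, and for ACAAT followed by ATTGT with 5 to 7 bases between. ACAAT occurred in 55.4% of the 139 lower REs, 62% of the 50 higher REs and 48.0% of the 550 uncalled REs, compared with 54.5% of all REs. In the 54 REs lower at 3 h and 48 h it occurred in 68.5%, and in the 85 lower at 48 h but not at 3 h in 47.1%. Over all REs lower at both times the share was 74.6%. Facing cores were found in 3 of the 739 REs (0.406%, against 0.242% of all REs): WNT2-2 and TCF7L2-16, which were lower at 3 h (log2 fold changes -2.45 and -1.46) and at 48 h (-1.53 and -1.28), and LRP5-11, which did not pass the threshold (0.03 and -0.10). CTTTGAT was present in 10.1% of the lower, 8.0% of the higher and 8.73% of the uncalled REs, and in 8.1% of all REs. With ACAATG or ACAAAG as the core, a search chosen after seeing the data, 58.3% of lower and 56.0% of higher REs held one. The shares were 47.6% of the uncalled REs, 49.6% of all REs and 63.9% of all lower REs of the series. The only facing pair 3 to 5 bases apart was in LRP5-6. REs differ in width. Among those of the most common width the shares for ACAAT were 55.4% of lower, 63.9% of higher, 45.6% of uncalled and 52.4% of all REs. At this width the early and late losses lay closer together. ACAAT occurred in 61.1% of the 36 REs lower at 3 h and 48 h. For the 65 lower at 48 h but not at 3 h the share was 52.3%. A match describes the letters of the reference genome and does not show binding.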

How the data were processed

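The authors trimmed the ATAC-seq reads, aligned them to hg38 with Bowtie2 2.4.1, filtered them with SAMtools 1.10, called peaks with MACS2 2.2.7.1 and deposited a table of raw read counts per RE. A count of a fixed set of REs depends on that peak calling, and accessibility of sites outside the set is not analysed here. All 151457 REs and 58 samples were used, and 0 columns of values were left out.

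Counts were scaled by TMM and tested with edgeR 4.0.16 (R 4.3.3; quasi-likelihood test, no filter on low counts) with the differentiation batch as a covariate, fitted over all REs. P-values were adjusted over all REs (Benjamini-Hochberg), and those under 0.05 were called. DESeq2, the tool the study used, was an alternative (version 1.42.0 here), as were RLE scaling, a filter on low counts, no block, a replicate block, each clone alone, each replicate left out, other assignments of REs to genes and other motif definitions. The other assignments were a 10 kb window, gene starts alone, and REs whose nearest coding start is a gene of the list. The scripts were tested on simulated data. ED50 values came from Hill curves fitted to batch-centred mean CPM after values over 3 SD from the mean were removed. Shares of the 500 nM change used log2 CPM with a prior count of 2. Motifs were read from the hg38 reference.

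Same-numbered samples come from the same differentiation. Their deviations from the group means were correlated in every pair (0.28 to 0.86 between 0 nM and the other doses, n = 7 pairs for each dose), so the numbers pair the samples. Samples are separate differentiations or clones of 1 parental line. The p-values measure the spread left after the batch or block terms of each fit, not the full spread between samples.

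The genes, lists and tests were chosen with earlier results of these data known. Named REs were those with the 2 largest losses and the largest gain at 500 nM in each role, the promoter REs with the 4 largest losses and 2 largest gains, any RE past the threshold at 1.6 nM, the 2 highest and 2 lowest ED50 values among REs changed by at least 0.5 (log2), and the largest rise at 3 h. Sequences were shown for the 8 of them with the largest losses, leaving out chromosome 8 and REs that overlap a UTR.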

Additional observations from a re-analysis of the deposited data

Results flagged for a closer look

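In the 29 named REs, 174 groups of 7 samples were searched for a sample far from the others (Dixon's criterion, which chance meets in about 1 in 20 groups), and 14 were found, 7 of them from S9CC13_R10, 6 from S9CC47_R8 and 1 from S9CC13_R13. S9CC13_R10 was high at FZD2-13 (6.877 CPM at 0.5 nM, 8.093 CPM at 5 nM and 9.092 CPM at 16 nM), at WNT9A-9 (3.955 CPM at 0.5 nM, 5.791 CPM at 5 nM and 4.764 CPM at 16 nM) and at WNT2-5 (1.551 CPM at 5 nM). S9CC47_R8 was high at TCF7L1-1 (14.98 CPM at 1.6 nM, 14.85 CPM at 5 nM, 12.15 CPM at 16 nM and 7.35 CPM at 500 nM) and at LRP5-20 (3.478 CPM at 5 nM and 3.362 CPM at 16 nM). S9CC13_R13 was high at AXIN2-18 at 500 nM (2.162 CPM). What these REs share in a replicate was not tested.

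The response to 500 nM dTAGV-1 differed between tagged and WT cells, by the test of the difference itself, at 41 REs after 3 h, 51 after 24 h and 81 after 48 h (edgeR, adjusted p under 0.05). These counts lie near the shares of all REs: 5.55% were lower here after 3 h and 5.13% of all REs, 6.63% and 6.28% after 24 h, and 8.12% and 7.29% after 48 h.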

How the results depend on the processing

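At 500 nM the 189 changed REs became 73 with no replicate block or batch term, and between 144 and 238 in other alternatives over the same 739 REs. The other assignments hold fewer REs. The 10 kb window gave 126 changed of 481, gene starts alone 176 of 691, and REs nearest a listed gene 155 of 605. Each replicate left out in turn gave 150 to 206. Over all 151457 REs, 36546 became 15104 with no block and 46402 with the replicate block. With no block, 7717 of all REs passed at 16 nM, 2145 at 5 nM, 0 at 3 h and 969 at 24 h. With no replicate block, 42 REs passed at 16 nM, 12 at 5 nM, 0 at 3 h, 6 at 24 h and 0 in WT cells at 48 h, and 6, 9 and 14 for the difference between genotypes at 3, 24 and 48 h. With the replicate block, 197 passed at 16 nM, 67 at 5 nM and 9 at 1.6 nM, and the block moved no other count of the dose series by more than 1.5 times. DESeq2 gave 2 at 1.6 nM, 72 at 24 h and 0 in WT cells at 48 h. Over all REs it gave 13283 at 24 h, where edgeR gave 22160. With 1 library left out, so that the lone sample is assumed to vary like the other groups, counts ran from 42 to 105 at 3 h and from 55 to 141 at 24 h, from 0 to 18 (without the 3 h sample of WT_R4) in WT cells at 3 h and from 0 to 2 (without the 24 h sample of WT_R5) at 24 h. For the difference between genotypes they ran from 22 to 63 at 3 h, from 29 to 65 at 24 h and from 37 to 44 at 48 h. At the ends of these ranges, in tagged cells and for the difference between genotypes, the counts over all REs shifted in the same direction. The cause of these shifts was not tested, apart from the fewer samples that leaving one out gives. With ACAATG and 3 to 5 bases between cores, 0 REs held a facing pair. Of the alternative values for named REs, 377 kept direction and side of the threshold, 39 kept direction but no longer passed, and none turned. The time course and the WT cells had 2 samples for each group, which limits what these comparisons could detect.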
